A study of Mus musculus with 6 samples.

Results

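The miRNAs described here are 7 mature miRNAs of leukocytes and of inflammatory signalling, chosen by name from the 698 miRNA rows measured in mouse left ventricle. They are mmu-miR-142-3p and mmu-miR-142-5p, the 2 arms of a miRNA shared by all blood-derived cells, mmu-miR-223 of myeloid cells, mmu-miR-150 of lymphocytes, and mmu-miR-155, mmu-miR-146a and mmu-miR-146b, which are induced through the transcription factor NF-κB. Small RNA was sequenced in 3 libraries from wild-type (WT) mice and 3 from mice of the genotype aMHC403/+, called 403 mutant below. The mutant carries the R403Q change in 1 copy of Myh6, which encodes the main myosin motor of the adult mouse heart. The title calls it a model of HCM, read here as hypertrophic cardiomyopathy. All 6 libraries came from aged mice, more than 50 weeks old, and no other treatment, allele or agent is named for either group. Strain and sex are not stated in the labels, and the titles call the libraries of a group biological replicates. Whole ventricle was used, so each level is an average over muscle and all other cells, and for any cell type more cells and more RNA per cell cannot be told apart.

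miRNAs guide the silencing machinery to messenger RNAs, which they recognise chiefly through the seed, bases 2 to 8 of the mature strand. Leukocytes carry a characteristic set. The miR-142 gene is transcribed throughout the blood lineage and hardly outside it, miR-223 follows the myeloid programme of neutrophils and monocytes, and miR-150 accumulates in resting mature B and T cells. NF-κB activity raises miR-155, which promotes inflammatory responses in macrophages and lymphocytes, and miR-146, which represses the adaptor proteins Traf6 and Irak1 and so limits NF-κB signalling. The aged, diseased heart holds resident macrophages and smaller numbers of lymphocytes, besides blood left in its vessels.

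The mature sequences of 6 of the 7 members in RefSeq (GRCm38.p6) were identical to the deposited ones once T was read as U. They are shown 5′ to 3′ with the seed in capitals, because the seed decides which members can share targets.
miR-142-3p: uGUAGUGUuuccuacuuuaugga
miR-142-5p: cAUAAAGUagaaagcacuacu
miR-223: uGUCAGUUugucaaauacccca
miR-155: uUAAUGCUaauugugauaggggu
miR-146a: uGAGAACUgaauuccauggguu
miR-146b: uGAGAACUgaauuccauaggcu
Of these only miR-146a and miR-146b shared a seed, and no other row of the table carried any of these seeds. The pair differed at 2 of 22 bases, G18A and U21C, with positions counted from 1 at the 5′ end, the miR-146a base first and the miR-146b base last. The way mismatches were handled in counting is not given in these sources, so reads could have passed between these 2 rows. Each of the other 4 printed sequences differed from its nearest row by at least 10 bases, compared position by position from the 5′ end. Sequences were not aligned, so a row similar but shifted would not be found this way. RefSeq placed miR-142-3p at chr11:87756903-87756925 and miR-142-5p at chr11:87756867-87756887 on the plus strand, in an intron of the noncoding gene Mir142hg, with the precursor Mir142b annotated on the opposite strand. miR-223 lay at chrX:96242884-96242905 in an exon of F630028O10Rik, and miR-155 at chr16:84714143-84714165 in an exon of its host transcript Mir155hg. miR-146a lay at chr11:43374435-43374456 on the minus strand, within its own precursor. miR-146b lay at chr19:46342790-46342811 in an intron of Mfsd13a, so the 2 miR-146 copies belong to separate transcripts. Overlaps are those of GENCODE M21.

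The libraries held between 2483486 and 5223636 miRNA reads, and levels were given as reads per 1000000 miRNA reads (RPM). A single read equalled between 0.191 RPM and 0.403 RPM, the latter in 403 mutant replicate 3. The 7 members together made up 0.151%, 0.182% and 0.139% of the miRNA reads in the WT libraries and 0.231%, 0.218% and 0.245% in the mutant libraries, so that every mutant lay above every WT. miR-142-3p alone held between 66.2% and 76.7% of these reads, and the group means of miR-150 and miR-155 were lower in the mutants. The member reads were rare beside those of the heart muscle markers miR-1, miR-133a, miR-208a and miR-499, which summed to between 413237 and 492442 RPM in WT and 379392 and 445518 RPM in the mutants. Of these markers, miR-499 was lower in every mutant (9620 to 12871 RPM) than in every WT (16252 to 17711 RPM). Its limma adjusted p was 0.0559, above the threshold of 0.05. All mutants lay below all WT for 2.59% of all tested miRNAs. The group ranges of miR-1, miR-133a and miR-208a overlapped. Markers of nerve, liver and epithelium (miR-124, miR-122, miR-200c and miR-141) were all detected in some library, miR-122 at 0 in 2 mutants, and summed to between 7.70 and 21.1 RPM. RPM is a share of the whole, and the median log2 difference of all tested miRNAs was 0.15 in favour of the mutants. After median-of-ratios scaling this median was −0.00081, near 0 by construction. It was 0.048 after TMM scaling and 0.022 with totals that leave out the 5 most abundant miRNAs. Differences are also given relative to 0.15, and the cause of the shift was not tested.

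The order of the levels was the same at the top in both groups. miR-142-3p led by a wide margin, ranked 39th to 44th of all miRNAs in the 6 libraries, and held between 66.2% and 76.7% of the member reads. miR-223 and miR-150 followed, with WT ranges that overlapped, 174 to 278 RPM and 131 to 238 RPM. In the mutants miR-223, at 237 to 370 RPM, lay above miR-150 at 106 to 186 RPM. miR-155, miR-146a and miR-142-5p came next, between 15.7 and 60.3 RPM in single libraries, and miR-146b was lowest. The mature strands are 21 to 23 bases long, so length hardly bears on these comparisons, but the efficiency with which each strand enters a library was not measured.

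**Figure D1:**
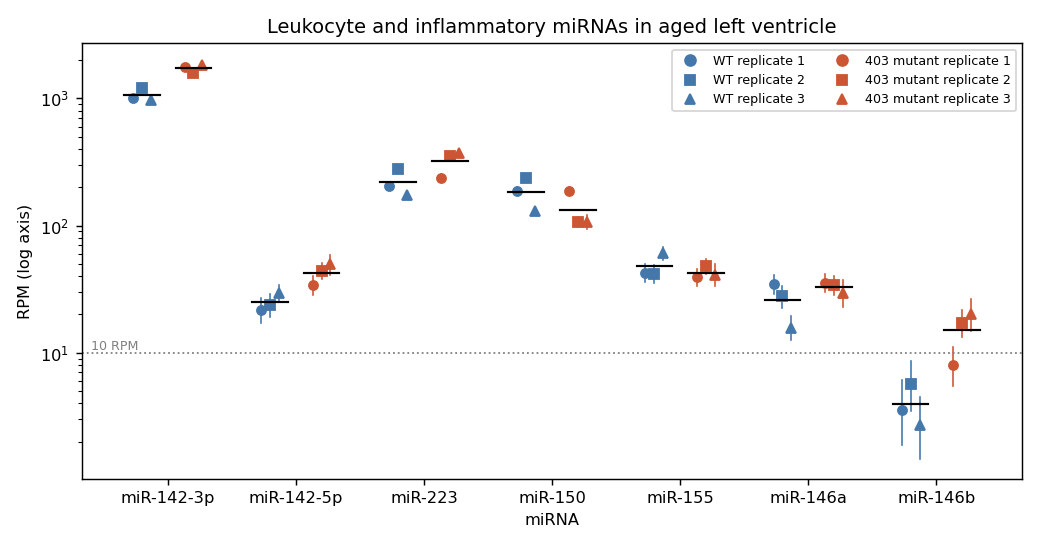
RPM of each miRNA (log axis) in each library, with WT in blue and 403 mutant in orange; symbols mark the replicate, black bars the group means, thin vertical lines the exact 95% Poisson interval of the reads of 1 library, and the dotted line the mean of 10 RPM needed for testing. miR-142-3p, miR-142-5p and miR-146b show mutant points that all lie above the WT points, and the other 4 miRNAs overlap.

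miR-142-3p, the major arm of the miRNA of all blood-derived cells, rose in the mutant ventricle. The minor arm had a difference of similar size that missed the threshold. The WT libraries gave miR-142-3p values of 1014, 1203 and 977 RPM, and the mutant libraries 1775, 1574 and 1835 RPM. The lowest mutant lay well above the highest WT. The group means were 1065 ± 122 RPM (SD, n = 3) and 1728 ± 137 RPM (n = 3), a ratio of 1.62. On the log2(RPM + 1) scale the difference was 0.70 ± 0.20 (SE; 95% interval 0.29 to 1.12), and 0.55 relative to the median of all miRNAs. It passed the threshold of 0.05 after Benjamini-Hochberg adjustment over the 193 tested miRNAs (limma adjusted p = 0.0333). It was the 1 member that rose among the 6 tested, and 0 fell, where limma called 5.18% of all tested miRNAs higher and 0% lower; a count of 1 does not set the members apart from that share. On the recovered reads edgeR and DESeq2 also called miR-142-3p higher and 0 members lower, where edgeR called 5.7% of all tested miRNAs higher and 0% lower, and DESeq2 4.15% and 2.07%. At an unadjusted p under 0.05 limma had 3 members higher (miR-142-3p, miR-142-5p and miR-223) and 0 lower, beside 19.7% of all tested miRNAs higher and 2.07% lower. At that threshold DESeq2 had 2 members higher and 1 lower, miR-150, beside 11.4% and 9.33% of all tested. With 6 members, counts of this size say nothing particular about the set. The call held in 14 of 19 other settings; it was lost after median-of-ratios scaling (limma adjusted p = 0.0623), without the variance trend (0.0699), and without WT replicate 1 (0.0678), WT replicate 3 (0.194) or 403 mutant replicate 3 (0.298).

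The less abundant arm, miR-142-5p, measured 21.7, 23.7 and 29.3 RPM among the WT libraries and 34.0, 44.1 and 49.5 RPM among the mutants. Here too the groups did not overlap. All mutants lay above all WT libraries for 2 of the 6 tested members, the miR-142 arms, and for 18.1% of all tested miRNAs; the reverse held for 0 members and 2.59% of miRNAs. The log2 difference was 0.74 ± 0.26 (95% interval 0.23 to 1.26), as large as that of the other arm, and 0.59 relative to the median of all miRNAs, and it missed the threshold (limma adjusted p = 0.0747). It rested on 79 to 183 reads per library. Without 403 mutant replicate 1 miR-142-5p passed (limma adjusted p = 0.0324), and likewise with sample weights (0.0119). Other settings were farther from the threshold, such as TMM scaling (limma adjusted p = 0.193) and leaving out 403 mutant replicate 3 (0.462). In DESeq2 the adjusted p was 0.211.

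Both arms come from 1 hairpin, which RefSeq gives as follows (chr11:87756864-87756927, GRCm38.p6, plus strand, the 5p arm and then the 3p arm in capitals).
Mir142: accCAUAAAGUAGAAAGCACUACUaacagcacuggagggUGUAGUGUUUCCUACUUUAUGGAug
The 3p arm outnumbered the 5p arm 46.8, 50.9 and 33.3 times in the WT libraries, against 52.2, 35.7 and 37.1 times in the mutants. The group ranges of this arm ratio overlapped throughout, with a log2 difference of −0.04 and a two-sided exact permutation p of 1. Among the 11 ratios compared, this was the smallest difference.

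miR-223, the myeloid member, had a difference in the same direction as miR-142 that did not pass. It was at 203, 278 and 174 RPM in the WT libraries, against 237, 353 and 370 RPM in the mutants. 403 mutant replicate 1 lay below WT replicate 2, and the other mutants lay above every WT. The log2 difference was 0.55 ± 0.24 (95% interval 0.06 to 1.04; limma adjusted p = 0.172), or 0.40 relative to the median of all miRNAs. It passed without 403 mutant replicate 1 (limma adjusted p = 0.0426) and with sample weights (0.0139). Without 403 mutant replicate 3 the limma adjusted p was 0.643. After median-of-ratios scaling the limma difference was 0.39 and its 95% interval, −0.04 to 0.83, included 0. The DESeq2 interval, −0.02 to 0.80, included 0 as well. Within a library miR-142-3p outnumbered miR-223 by 4.996, 4.33 and 5.63 times in the WT libraries, against 7.48, 4.46 and 4.97 times in the mutants, which overlap (exact permutation p = 0.7).

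miR-150, the lymphoid member, pointed the other way. It was at 186, 238 and 131 RPM in the WT libraries, against 186, 106 and 106 RPM in the mutants. Replicates 2 and 3 of the mutant lay below every WT library, while 403 mutant replicate 1 matched WT replicate 1. The log2 difference was −0.48 ± 0.26 (95% interval −1.01 to 0.04) and did not pass (limma adjusted p = 0.292). Relative to the median of all miRNAs the difference was −0.64. Leaving out single libraries gave log2 differences from −0.75 to −0.28, none of which passed (lowest limma adjusted p = 0.0507).

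**Figure D2:**
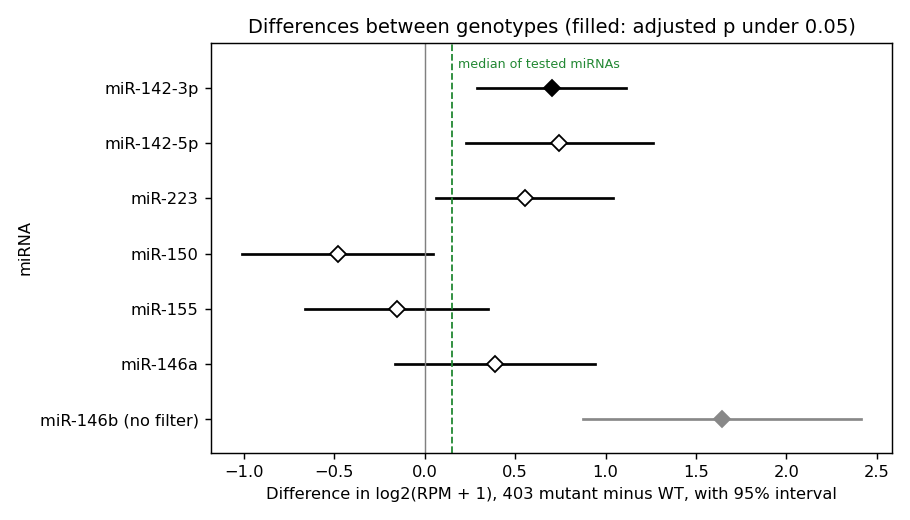
Difference in log2(RPM + 1), 403 mutant minus WT, with limma's 95% interval for each miRNA; filled symbols passed at an adjusted p under 0.05, the dashed line is the median of all tested miRNAs (0.15), and miR-146b, in grey, comes from the fit without a filter on low levels. From RPM without further scaling, the intervals of miR-142-3p, miR-142-5p, miR-223 and miR-146b lie above 0, and those of miR-150, miR-155 and miR-146a include 0.

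Ratios of RPM within a library do not depend on the library total, and they set the myeloid, lymphoid and common members against each other. miR-142-3p outnumbered miR-150 by 5.44, 5.06 and 7.47 times in the WT libraries, against 9.53, 14.8 and 17.3 times in the mutants. Every mutant lay above every WT, and the log2 difference was 1.18. The two-sided exact permutation p was 0.1, the smallest that 3 against 3 libraries allow, and 0.367 adjusted over the 11 ratios. The ratio of miR-223 to miR-150 was 1.09, 1.17 and 1.33 in the WT libraries, so miR-223 had more reads in each. In the mutants it was 1.27 in replicate 1 and 3.32 and 3.48 in replicates 2 and 3. The first of these lay within the WT range and the others at more than the WT maximum, with a log2 difference of 1.03 (exact permutation p = 0.2, adjusted 0.44). As a share of all member reads, miR-150 made up 11.6% ± 1.95 (SD, n = 3) in WT and 5.76% ± 2.002 (n = 3) in the mutants, and miR-142-3p 68.0% ± 2.13 and 74.6% ± 2.18. The design cannot reach a p of 0.05 for any of these ratios, which share miRNAs and so are not independent. Their log2 differences were taken after adding 1 RPM to each level.

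Blood retained in the tissue was gauged with the red blood cell miRNAs miR-451, miR-144 and miR-486, all 3 of which were detected. None of them passed (limma adjusted p = 0.551, 0.711 and 0.812). Their sum ranged from 2072 to 2855 RPM in WT and from 2056 to 2566 RPM in the mutants, but nearly all of it was miR-486, which muscle also makes from the Ank1 gene. miR-451 and miR-144 together came to 91.6, 79.3 and 123 RPM in the WT libraries, against 137, 58.0 and 66.0 RPM in the mutants. Replicate 1 of the mutant was thus the highest of all 6 libraries and replicates 2 and 3 the lowest. miR-451 alone was at 29.1, 32.3 and 36.4 RPM in the WT libraries, against 52.0, 15.4 and 20.5 RPM in the mutants, highest in 403 mutant replicate 1. The ratio of miR-142-3p to miR-451 was 34.9, 37.3 and 26.9 in the WT libraries, against 34.1, 102 and 89.4 in the mutants, overlapping through that replicate (exact permutation p = 0.3, adjusted 0.55). miR-223 per miR-451 was 6.98, 8.62 and 4.77 in the WT libraries, against 4.56, 22.9 and 18.0 in the mutants (exact permutation p = 0.4, adjusted 0.55). The ratio of miR-150 to miR-451 ranged from 3.59 to 7.38 in WT and from 3.58 to 6.91 in the mutants (exact permutation p = 0.8).

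**Figure D3:**
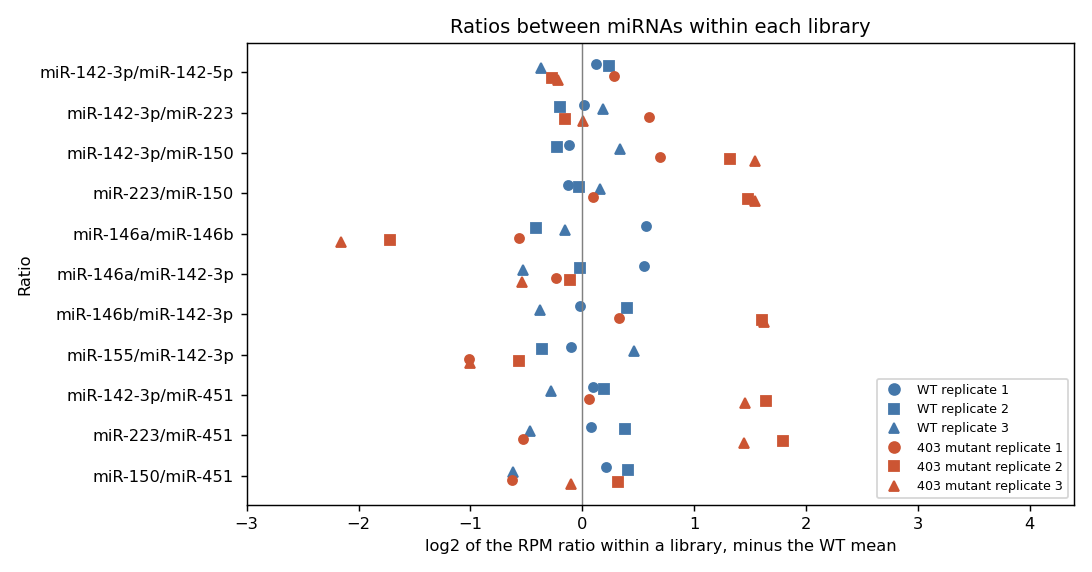
log2 of the RPM ratio of 2 miRNAs within each library, minus the WT mean of that ratio, for the 11 ratios; WT in blue, 403 mutant in orange, symbols marking the replicate. Groups do not overlap for miR-142-3p/miR-150, miR-146a/miR-146b and miR-155/miR-142-3p, and 403 mutant replicate 1 lies among or next to the WT points in several others.

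Among the members induced through NF-κB, miR-146b had the largest difference between the groups. Its level was 3.56, 5.65 and 2.68 RPM in the WT libraries, against 7.97, 17.1 and 20.1 RPM in the mutants. These values stand for 13, 21 and 14 reads and for 34, 71 and 50 reads. All mutants lay above all WT libraries, although the exact 95% Poisson intervals of the nearest pair, 3.49 to 8.63 RPM in WT replicate 2 and 5.52 to 11.1 RPM in 403 mutant replicate 1, overlap. The group means were 3.96 ± 1.52 and 15.1 ± 6.33 RPM (SD, n = 3 each), a ratio of 3.80, the largest of the 7 members. Without a filter, such separation upward held for 3 of 7 members and for 10.7% of 478 miRNAs. The mean over all libraries, 9.51 RPM, fell just short of the 10 RPM needed for the main test, so this miRNA was tested without the filter.

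Without the filter, over 478 miRNAs, miR-146b rose by 1.65 ± 0.38 on the log2(RPM + 1) scale, or 1.55 relative to the median of those miRNAs (limma adjusted p = 0.00850), where limma called 1.46% of miRNAs higher. With edgeR's quasi-likelihood test on the recovered reads, added after its level was seen, the log2 difference was 1.92 (edgeR adjusted p = 7.53e-06), where 2.3% were called higher. edgeR took library totals without scaling factors, so it kept the shift of all miRNAs towards the mutants. Relative to the median of the 478 miRNAs, the edgeR difference was 1.77. DESeq2 was not run without the filter. The edgeR call held with each library left out (adjusted p from 1.80e-07 to 0.00365). In limma it was lost without WT replicate 1, WT replicate 3 or 403 mutant replicate 3 (limma adjusted p = 0.0894, 0.111 and 0.446), and with a pseudocount of 10 (0.131). For scale, the epithelial miR-200c, which heart muscle should nearly lack, ranged from 7.53 to 12.8 RPM among WT and from 4.43 to 5.54 RPM among mutants. The minor arm, miR-146b*, had 1, 1 and 0 reads in WT and 0, 3 and 2 reads in the mutants, too few to compare.

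miR-146a, with the same seed, was at 34.5, 27.7 and 15.7 RPM in the WT libraries, against 35.1, 33.9 and 29.4 RPM in the mutants. WT replicate 3 was low and the remaining libraries lay close together, with WT replicate 1 next to the highest mutant. The log2 difference was 0.39 ± 0.27 (95% interval −0.16 to 0.94; limma adjusted p = 0.432). Relative to the median of all miRNAs it was 0.24, in DESeq2 it was 0.17 (adjusted p = 0.844), and leaving out WT replicate 3 reduced it to 0.08 in limma. Reads of miR-146a outnumbered those of miR-146b by 9.69, 4.90 and 5.86 times in the WT libraries, against 4.41, 1.99 and 1.46 times in the mutants. Every mutant ratio lay below every WT ratio (log2 difference −1.26; exact permutation p = 0.1, adjusted 0.367). With 10 RPM added in place of 1 this difference shrank to −0.53, and with 1 library left out it ranged from −0.94 to −1.68. Counted together by their shared seed, the pair reached 38.1, 33.3 and 18.4 RPM in WT and 43.1, 51.0 and 49.5 RPM in the mutants. miR-146b supplied 9.35%, 16.9% and 14.6% of this sum in the WT libraries, against 18.5%, 33.5% and 40.7% in the mutants.

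miR-155, a marker of activated lymphocytes and macrophages, did not pass in either direction. It was at 42.5, 41.9 and 60.3 RPM in the WT libraries, against 39.4, 47.7 and 41.1 RPM in the mutants. The groups overlapped, and WT replicate 3 was the highest. The log2 difference was −0.16 ± 0.25, with a 95% interval from −0.66 to 0.35 (limma adjusted p = 0.793). Relative to the median of all miRNAs it was −0.31, in DESeq2 it was −0.38 (adjusted p = 0.355), and in limma without WT replicate 3 it was 0.01. Against miR-142-3p in the same library, miR-155 came to 0.0419, 0.0349 and 0.0617 in the WT libraries, against 0.0222, 0.0303 and 0.0224 in the mutants. All mutants lay below all WT (log2 difference −0.86; exact permutation p = 0.1, adjusted 0.367). miR-146b per miR-142-3p overlapped between groups, at 0.00352, 0.00469 and 0.00274 in the WT libraries, against 0.00449, 0.0109 and 0.0110 in the mutants (exact permutation p = 0.2, adjusted 0.44). Its log2 difference of 0.95 shrank to 0.12 with 10 RPM added. The ratio of miR-146a to miR-142-3p was 0.0244 ± 0.00908 in WT and 0.0191 ± 0.00284 in the mutants (exact permutation p = 0.4).

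**Figure D4:**
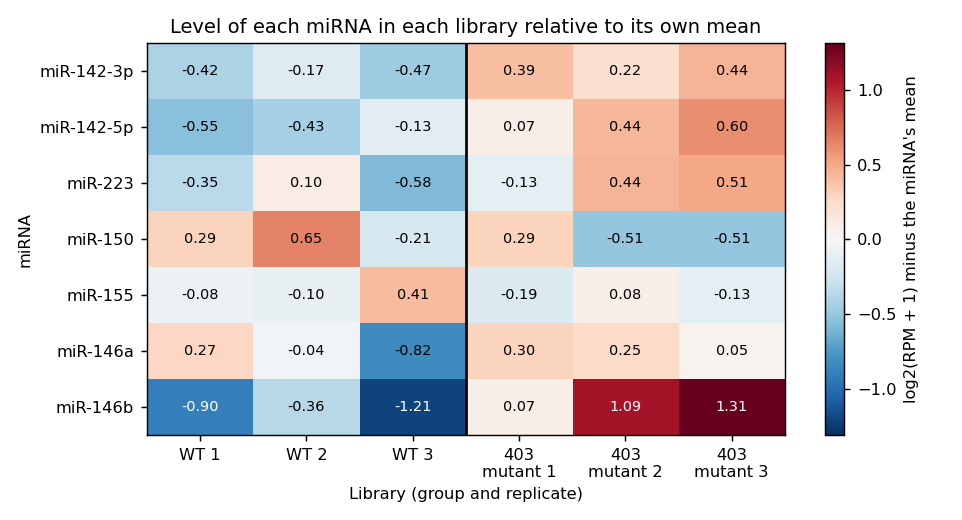
log2(RPM + 1) of each miRNA in each library minus its own mean over the 6 libraries, printed in each cell, with the vertical line between WT and 403 mutant. 403 mutant replicate 1 sits at 0.07 for miR-142-5p, −0.13 for miR-223, 0.29 for miR-150 and 0.07 for miR-146b, where replicates 2 and 3 sit at 0.44 and 0.60, 0.44 and 0.51, −0.51 and −0.51, and 1.09 and 1.31.

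The 3 mutants were not alike. For miR-142-5p, miR-223, miR-150 and miR-146b, replicates 2 and 3 lay closer to each other than to replicate 1, which lay nearer to WT. For miR-142-3p replicate 1, at 1775 RPM, lay between the other mutants. Nor did the pattern hold for miR-146a, where replicates 1 and 2 lay closest, or for miR-155, where replicates 1 and 3 did. The fibroblast miRNAs miR-21, miR-214, miR-199a-3p and miR-199a-5p, all 4 detected, summed to 3931, 6658 and 8512 RPM in the mutants, against 1613 to 3040 RPM in WT. Most of this sum was miR-21, which leukocytes also carry, at 2689, 5498 and 6526 RPM in the mutants. The other 3 summed to 1243, 1160 and 1986 RPM in the mutants, against 514 to 834 RPM in WT, and did not set replicate 1 apart from replicate 2. Of these miR-214 (log2 difference 1.37, limma adjusted p = 2.09e-04) and miR-199a-5p (1.18, limma adjusted p = 0.00220) passed. miR-199a-3p (0.65, limma adjusted p = 0.0823) did not. The differences that passed were larger than the highest of the 6 members tested with the filter, 0.74. They were smaller than that of miR-146b without the filter, 1.65. The endothelial pair miR-126-3p and miR-126-5p summed to 26942 to 38273 RPM in WT and 30476 to 37224 RPM in the mutants. The part of these other cell types in the differences of the leukocyte miRNAs was not tested.

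Spread between the libraries of a group exceeded counting error for most members. The coefficient of variation of miR-150 was 29.0% in WT and 34.7% in the mutants, where its reads alone would give 3.65% and 4.47%. For miR-142-3p it was 11.4% and 7.92%, the tightest of the members, against 1.503% and 1.27% from counting. For miR-146a in the mutants the spread of 9.24% was close to the 9.08% that counting gives.

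By the root mean square difference of centred log2 levels over the 6 libraries, the tested miRNAs outside the set most like miR-142-3p were miR-199a-3p (0.12), miR-23b (0.13) and miR-188-5p (0.14). miR-142-5p (0.25) and miR-223 (0.26) were farther away. The 5p arm lay nearest to miR-208b (0.13), miR-376a (0.15) and miR-127 (0.20). miR-223 lay nearest to miR-467c (0.13), miR-188-5p (0.14) and miR-199b* (0.15). miR-150 had no neighbour closer than miR-145 (0.21) and miR-22* (0.22), and the third, miR-342-3p (0.23), is itself an miRNA of leukocytes. miR-155 lay nearest to miR-340-5p (0.11), miR-208a (0.16) and miR-101b (0.16), miRNAs whose log2 differences lay between −0.11 and 0.07. miR-146a lay nearest to miR-425* (0.21), miR-455 (0.21) and miR-98 (0.22). These values describe 6 libraries that share 1 split into groups, and all members with a group difference share it.

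Of 21 other miRNAs linked to leukocytes or inflammatory induction, 18 were in the table and 13 were tested. Among these 2 rose by limma, miR-21 and miR-147, and 0 fell, beside 5.18% called higher among all tested. edgeR and DESeq2 called the same 2, beside 5.7% and 4.15% higher among all tested. At an unadjusted p under 0.05 limma had 4 of the 13 higher and 0 lower, beside 19.7% and 2.07% of all tested. Their median log2 difference was 0.30, against 0.15 for all tested miRNAs. The list was chosen with earlier results of these data known, so these counts and this median do not set it apart from all tested miRNAs. miR-147, induced by Toll-like receptor signalling in macrophages, averaged 10.5 ± 3.36 RPM (SD, n = 3) without and 23.6 ± 4.56 RPM (n = 3) with the mutation (limma adjusted p = 0.00970). miR-21, which is abundant in fibroblasts as well as in leukocytes, belongs to the fibroblast list above and differed by 1.43 ± 0.26 (limma adjusted p = 2.09e-04). The other members of high level did not pass. They were miR-125b-5p (log2 difference 0.30), miR-125a-5p (0.44), miR-652 (0.56) and miR-181a (−0.09), with limma adjusted p of 0.273, 0.232, 0.180 and 0.817. miR-342-3p, at 16.4 ± 3.00 and 14.6 ± 5.27 RPM, differed by −0.20 ± 0.28 (limma adjusted p = 0.738).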

How the data were processed

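The members, the lists and the tests were chosen with earlier results of these data known. Multiplexed small RNA libraries were made from kit-purified total RNA, per the labels' protocols. The deposited values are RPM of mature miRNAs; the file header calls them only normalised, and the unit was worked out from the values, which sum to about 1000000 per library. The aligner, counter, miRNA database and build were not given in the sources used here. 100% of values in each library were whole multiples of 1 read (tolerance 0.02 reads), so reads were recovered (WT totals 3647223, 3719703 and 5223636; mutant totals 4267939, 4154277 and 2483486). Intervals cover counting error only.

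Rows with a mean of at least 10 RPM (193 of 698) were tested as log2(RPM + 1), which understates changes of low rows, with limma 3.58.1 (trend) in R 4.3.3, two-sided, Benjamini-Hochberg adjusted. All members were named. Likeness named 3 miRNAs per tested member; the other immune list was named by calls and the 5 highest means, and miR-342-3p beyond that rule after its values were seen. Ratios were compared with exact permutation tests. edgeR 4.0.16, with library totals and no scaling factors, and DESeq2 1.42.0, with its own scaling, were run on recovered reads. Other alternatives were scaling, pseudocount, filter, weights, each library left out and the replicate block. edgeR without a filter and the combinations for miR-146b without a filter were added after seeing the data. Only the limma fit with the filter was tested on simulated reads, drawn with the spread fitted to these data. Within groups, each 2 libraries differed beyond the sampling noise of reads. Nothing beyond the titles says that they are separate animals, so p-values measure the spread between these samples. Figures were drawn with matplotlib 3.10.9.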

Additional observations from a re-analysis of the deposited data

How the results depend on the processing

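Depth limits miR-146b most, at 13 to 71 reads per library. Against 10 calls among all tested miRNAs and 1 among the members, sample weights gave 37 and 3 and median-of-ratios scaling 6 and 0. TMM scaling gave 4 calls in all, limma without trend 0 among the members, and fits without a filter 2 among the members by limma as well as by edgeR, which called 18 in all. Leaving out 1 library gave 1 to 24 calls in all (1 and 5 when WT replicates 3 and 1 were dropped, 22 when WT replicate 2 was, 24 when 403 mutant replicate 1 was) and 0 to 3 among the members (3 without 403 mutant replicate 1; 0 without WT replicate 1, WT replicate 3 or 403 mutant replicate 3).

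miR-142-3p lost its call at an unchanged log2 difference of 0.70 without trend and at 0.54 after median-of-ratios scaling, and its difference with 1 library left out ranged from 0.64 to 0.79. With sample weights miR-142-5p passed at 0.82 and miR-223 at 0.74; with 1 library left out they ranged from 0.63 to 0.89 and from 0.40 to 0.75. Against its call without a filter, miR-146b was lost without WT replicate 1, WT replicate 3 or 403 mutant replicate 3 and with a pseudocount of 10, where its difference fell to 0.82, which by construction shrinks low rows; it ranged from 1.403 to 2.02 with 1 library left out. miR-155 ranged from −0.25 to 0.011 with 1 library left out. The log2 difference of miR-142-3p/miR-142-5p was 0.11 with a pseudocount of 10 and ranged from −0.22 to 0.077 with 1 library left out; that of miR-142-3p/miR-223 ranged from −0.073 to 0.30, turning without 403 mutant replicate 1, and that of miR-150/miR-451 from −0.46 to 0.080. Apart from the shrinkage named, the cause was not tested. Among the alternative values of single miRNAs, 111 kept side and direction, 9 lost the call, 4 gained it and 1 changed direction. Among those of ratios, 91 kept direction and 8 changed it. The replicate block cannot change the difference of a ratio, and several limma settings leave that of a miRNA unchanged. These counts are therefore not independent checks.

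Same-numbered deviations correlated at 0.51, −0.07 and 0.18, so the replicate numbers were not taken as pairs. With the replicate block limma called 17 miRNAs, 1 of them a member (miR-142-3p, limma adjusted p = 0.0117). For the ratios an exact sign-flip test over 3 pairs cannot give a p below 0.25.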
